A study of Mus musculus with 8 samples.

Results

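The regions described here, called sites below, were 307 SMAD4 peaks in gene deserts. They were called in BMP9/10-stimulated endothelial cells and overlapped no peak of the unstimulated cells. They were selected on the deposited peak lists in 3 steps. Of 4333 peaks of the stimulated list, 4324 lay on the assembled nuclear chromosomes (1 to 19, X and Y). Of these, 3245 (75%) shared not a single base with an unstimulated peak. A site then had to have its summit, the base of highest coverage, more than 100 kb from the body of the nearest protein-coding gene in the RefSeq annotation of mm10, a distance that 432 of the 4324 peaks (9.99%) exceeded. Both criteria held for 307 peaks, and another 125 desert peaks overlapped an unstimulated peak and are called shared below. Because being called in 1 list and not in the other chose the sites, their absence from the unstimulated list is a description and not a result.

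The study profiled SMAD4 by chromatin immunoprecipitation and sequencing (ChIP-seq) in MS1, an immortalised mouse endothelial line derived from pancreatic islets. All cells were starved of serum for 24 h. They then received either fresh medium (unstimulated) or recombinant BMP9/10 protein at 1 ng/mL (stimulated), and each condition had 2 SMAD4 immunoprecipitates (IP) and 2 input DNA samples. The authors merged the libraries of a condition before calling peaks, so no value here has a replicate error, and nothing in the labels says whether the 2 samples were separate cultures. The lists rested on 41044888 stimulated and 52971023 unstimulated IP tags. Both stimulated IP titles contain an unexplained KD, so every statement on stimulated cells is one on the libraries labelled as stimulated. A single line at 1 dose was sampled, and the chromatin of a cultured line need not match that of vessels in an animal.

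BMP9 and BMP10 are circulating ligands that bind the endothelial receptor ALK1 with its co-receptor endoglin. The activated receptor phosphorylates SMAD1, SMAD5 and SMAD9, which join SMAD4 and enter the nucleus, where SMAD proteins bind short GTCT boxes (AGAC on the opposite strand) and GC-rich elements, usually beside other transcription factors. Gene deserts are long stretches without protein-coding genes, and several of them are known to carry enhancers that act over large distances on developmental regulators at their borders. Which gene such a site acts on cannot be read from distance, so both flanking genes are named for most sites given here and neither is called the target. A site described under a listed gene can lie nearer to the gene on its other side.

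Sequence could be shown for the sites that fall within the RefSeq windows around the starts of annotated genes, here those of long non-coding RNA (lncRNA) genes, since a desert site has no protein-coding start close by. The 3 runs below are the parts of 3 desert peaks within such a window (GRCm38.p6, the assembly behind mm10), each written 5′ to 3′ on the strand of the non-coding gene. Capitals mark each SMAD box, GTCT or AGAC. The first peak lay 169 bp from the start of Gm40178, with Adgrl2 on the left at 1412.6 kb and Adgrl4 on the right at 1036 kb, and 172 of its 198 bp are shown (chr3:150401664-150401835, plus strand). The second lay 138 bp from the start of 4930471E19Rik, between Hmga2 and Msrb3 (chr10:120636167-120636349, minus strand, the whole peak of 183 bp). The third lay 128 bp from the start of Gm35551, between Haao at 196 kb and Zfp36l2 at 139 kb (chr17:84044582-84044792, minus strand, the whole peak of 211 bp).
Gm40178: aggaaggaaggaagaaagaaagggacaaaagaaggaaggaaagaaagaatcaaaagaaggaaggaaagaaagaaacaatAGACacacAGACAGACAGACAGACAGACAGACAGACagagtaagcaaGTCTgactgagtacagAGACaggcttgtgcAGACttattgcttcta
4930471E19Rik: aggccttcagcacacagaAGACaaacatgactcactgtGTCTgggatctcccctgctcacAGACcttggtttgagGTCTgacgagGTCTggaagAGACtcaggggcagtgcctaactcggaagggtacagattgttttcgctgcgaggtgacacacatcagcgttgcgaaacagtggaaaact
Gm35551: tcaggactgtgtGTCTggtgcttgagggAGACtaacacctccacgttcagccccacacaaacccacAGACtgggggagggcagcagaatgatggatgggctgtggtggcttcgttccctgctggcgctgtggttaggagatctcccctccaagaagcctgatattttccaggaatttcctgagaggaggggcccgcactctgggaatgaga
The Gm40178 run held 11 SMAD boxes between bases 80 and 160, most of them in a repeated tract of AGAC, and its summit lay at base 82. The 4930471E19Rik run held 6 boxes between bases 19 and 98, with its summit at base 105. The Gm35551 run held 3 boxes between bases 13 and 70, with its summit at base 79. Such a short word is common. Over the same stretch of all 32851 RefSeq windows, at least 1 box stood in 72.2%, 73.8% and 77.5% for the 3 runs in that order. The longer word CAGAC, which contains a SMAD box and was searched on both strands, occurred 9, 4 and 2 times, and it stood in 32.2%, 33.6% and 37.5% of the windows over the same stretches. The AP-1 word TGAGTCA, searched likewise, occurred once, in the 4930471E19Rik run, at bases 28 to 34, and it stood in 3.24% of the windows. The words GGCGCC and GGAGCC of BMP-responsive elements and the ETS word CAGGAAG, each searched on both strands, were in none of the 3 runs, which says nothing of the factors beyond these letters. The 3 peaks differed in strength: the deposited fold enrichment, the authors' ratio of IP to local background, was 3.57 at Gm40178, 2.89 at 4930471E19Rik and 5.83 at Gm35551, with 24, 25 and 27 IP tags over the summit.

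Another desert peak contained a microRNA hairpin. The peak at chr7:61685202-61685589, with a fold enrichment of 4.56, 25 IP tags over its summit and a width of 388 bp, lay between Gm51483 at 572 kb and Ndn at 663 kb, and the hairpin of Mir344d-2 (minus strand) lay inside it, 165 bp from the summit. The hairpin of Mir344d-1 began 2324 bp from the same summit. The mature RNAs of Mir344d-2 are shown with the seed, bases 2 to 8, in capitals, because they are the sequence of the transcribed element that this site covers.
mmu-miR-344d-3p: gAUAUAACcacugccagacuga
mmu-miR-344d-2-5p: aGUCUGGUugcuggcuauauucca
The RefSeq table gives the same 3p RNA for both hairpins, so those arms share 1 seed.

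Stimulated-only desert sites were close in strength to the other stimulated-only sites, and weaker and narrower than shared sites. Their median fold enrichment was 4.44 (95% interval 4.14 to 4.60), against 4.29 (4.24 to 4.35) for the 2938 stimulated-only peaks outside deserts, and the intervals overlapped. Outside deserts the median was 4.25 for 1560 peaks inside a protein-coding gene, 4.33 for 653 peaks up to 10 kb from one and 4.32 for 725 peaks at 10 to 100 kb. The median coverage at the summit (the pileup) was 0.609 tags per 1000000 IP tags in deserts (0.560 to 0.633) and 0.633 outside them. Shared desert peaks had a median fold enrichment of 5.70 (5.25 to 6.33) and 1.12 tags per 1000000 IP tags, and these intervals did not overlap those of the stimulated-only desert peaks. Part of that gap follows from the selection itself, since a site called in both lists had to pass the threshold in each.

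**Figure D1:**
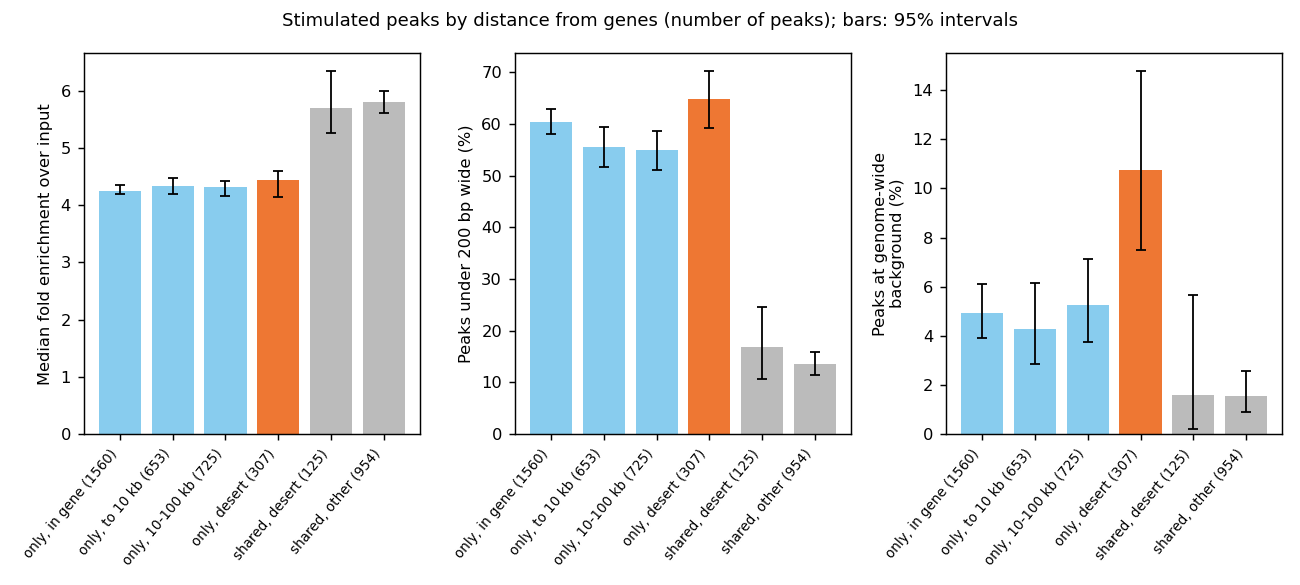
Median fold enrichment (ratio, left), percent of peaks under 200 bp wide (centre) and percent of peaks on the genome-wide background (right) of the stimulated peaks by position class, with the number of peaks in brackets and error bars giving 95% intervals over peaks, not over replicates. The 307 stimulated-only desert peaks (median 4.44 fold) stood close to the other stimulated-only classes (4.25 to 4.33 fold) and below the shared ones, and they were most often on the genome-wide background (10.7%).

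Desert sites were also narrow. The median width was 170 bp (159 to 178) in deserts and 182 bp (178 to 186) at stimulated-only peaks outside them, and 64.8% (59.2 to 70.2) of the desert sites were under 200 bp wide, against 58% (56.2 to 59.8) outside. The intervals of the shares overlapped slightly. Only 16.8% (10.7 to 24.5) of the shared desert peaks were under 200 bp. The widest of the 307 was a 519 bp peak between Kit and Kdr, and the narrowest were 100 bp, the length to which the authors extended each tag.

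The local background under the sites, taken from input DNA, was more often at its floor at stimulated-only sites in deserts than at those outside, and rarely so at shared peaks in either place. At 33 of the 307 sites (10.7%, 7.52 to 14.8) it equalled the genome-wide value of 2.19 tags, the lowest that the peak caller uses, compared with 4.87% (4.12 to 5.71) of stimulated-only peaks outside deserts, and these intervals did not overlap. Among shared peaks it was 1.60% (0.194 to 5.66) in deserts, 2 of 125, and 1.57% (0.883 to 2.58) outside. A site on floor background needs fewer IP tags to pass. It also ranks higher at the same number of tags, since fold enrichment divides pileup plus 1 by background plus 1. Of the 10 sites of highest fold enrichment, 8 had floor background, and 8 of the 10 were under 200 bp wide. How much of the ranking comes from the background was not measured. At the other end, 16 sites (5.21%, 3.01 to 8.33) had a background over 5 times the genome-wide value. Their IP pileups ran from 31 to 113 tags and included the highest of all 307, but their fold enrichment was only 1.84 to 3.46.

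**Figure D2:**
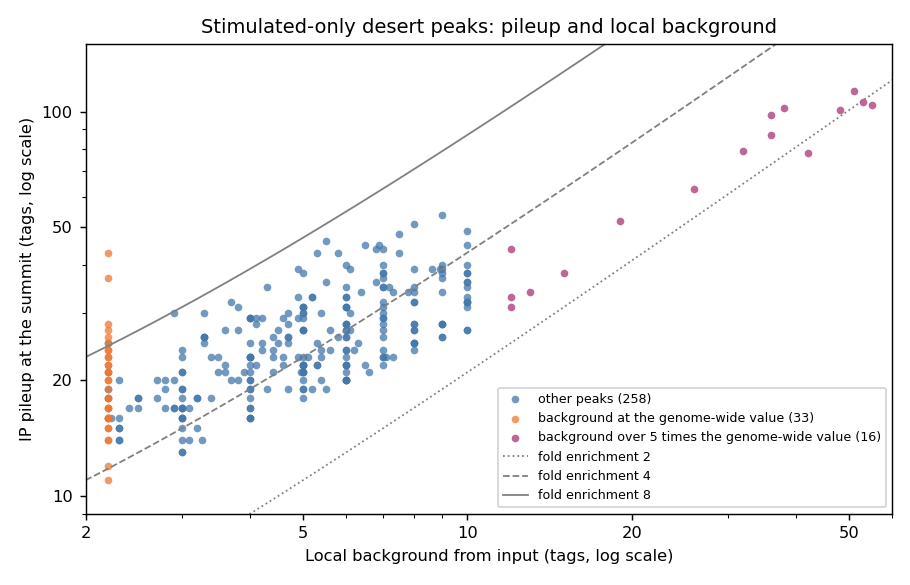
IP pileup at the summit (tags, log scale) against the local background from input (tags, log scale) for each of the 307 stimulated-only desert peaks, 1 point per peak, with grey lines of equal fold enrichment (2, 4 and 8). The left edge holds the 33 peaks on the genome-wide background of 2.19 tags, and the 16 peaks with a background over 5 times that value lie at the right, with pileups of 31 to 113 tags.

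The 16 high-background sites were concentrated at a few places. The chr9 group, 3 peaks at chr9:3020497-3026443 next to Alkbh8 with no protein-coding gene on the other side, had pileups of 79, 113 and 63 tags and an enrichment of 2.42, 2.19 and 2.37 over a background 11.9 to 23.2 times the genome-wide value. An unstimulated peak lay 0.182 to 1.48 kb from each of them. The chr14 group, 4 peaks between Gm41099 and Gm2244 (chr14:19416186-19418888), had pileups of 98, 87, 101 and 106 tags, an enrichment of 1.98 to 2.68 and a background 16.4 to 24.1 times the genome-wide value. A pair between Lrrc4c, a neuronal adhesion protein gene, and Iftap had 102 and 104 tags with an enrichment of 2.64 and 1.88. The other 7 were single sites, among them 1 between Klf4 and Actl7b (2.50 fold) and 1 between Jun and Fggy (2.62 fold). Whether SMAD4 was bound at the 16 was not tested. Without these 16, the 291 remaining sites had a median fold enrichment of 4.51.

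The unstimulated list was deeper and had a stricter lowest p-value, so the stimulated level of each site was set against the level needed for a call there. The stimulated pileup was multiplied by 1.29, the ratio of IP tags, and divided by the lowest pileup that would reach the weakest called unstimulated p-value on the same background per tag. The ratio ran from 1.01 to 3.96, with a median of 1.47. That no site fell below 1 was fixed by the selection, since each was called on fewer tags. It reached 1.5 at 146 sites (47.6%) and 2 at 34 sites (11.1%). At the median site an unstimulated level 1.47 times below the stimulated one would thus already have lain at the calling limit. A missing unstimulated peak therefore does not show that SMAD4 was absent there.

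**Figure D3:**
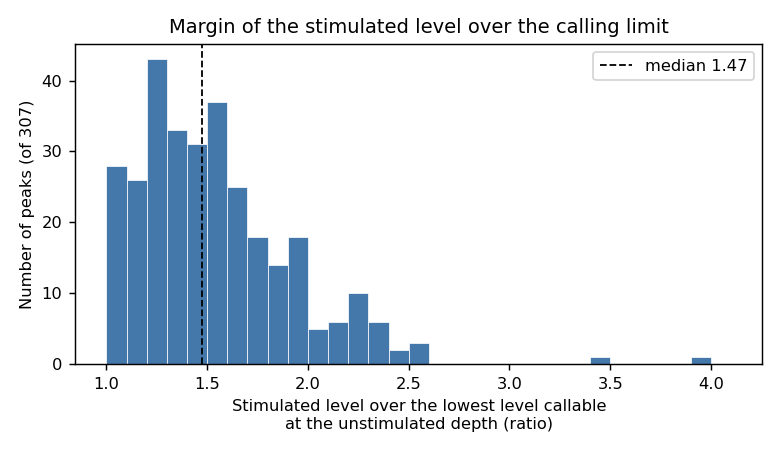
Histogram of the stimulated level divided by the lowest level callable at the unstimulated depth (ratio) over the 307 desert sites. Every site lies above 1, which the selection fixed, the median is 1.47, and 34 sites reach 2 or more.

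Unstimulated peaks lay near some of the sites without touching them. The distance to the nearest unstimulated peak had a median of 396 kb. It was at most 1 kb for 10 sites, at most 10 kb for 34 and at most 100 kb for 86 (28.0%). Several sites named elsewhere in the text are among these, and not all are marked there. The distance was 0.249 and 1.503 kb for the Lrrc4c pair and 0.534 kb for the 5.5 fold site between Aldh8a1 and Sgk1. It was 0.923 kb for the site between Bmp4 and Cdkn3, 1.586 kb for the Pmepa1 site and 4.276 kb for the Edn1 site. The Cxcl12 cluster had 2.345 to 14.992 kb, and the Hmga2 and Msrb3 cluster 3.604 to 11.596 kb. In the other direction, 125 of the 132 unstimulated desert peaks (94.7%, 89.4 to 97.8) overlapped a stimulated peak. Of the desert peaks of the stimulated list 71.1% (66.5 to 75.3) were stimulated-only, beside 75.5% (74.1 to 76.8) of those outside deserts and the 75% of all nuclear stimulated peaks. The desert share was 9.46% (8.48 to 10.5) of stimulated-only peaks, 11.6% (9.74 to 13.6) of shared stimulated peaks and 11.7% (9.87 to 13.7) of unstimulated peaks, with overlapping intervals. The stimulated-only share was the lowest of the 3, by less than these intervals resolve.

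Peaks of both kinds were sparse in deserts. Positions over 100 kb from a protein-coding gene and between such genes added up to 785 Mb, 29.2% of the 2691 Mb that the genes span. These held 3.86 stimulated-only peaks per 10 Mb, against 15.4 per 10 Mb elsewhere. For shared peaks the densities were 1.59 and 5.01. Of 1689 gaps between protein-coding genes that exceed 200 kb, and so can hold a desert site, 198 (11.7%) held at least 1 of the stimulated-only sites. Gaps with a site were longer, with a median of 701 kb against 391 kb for gaps without one, and they have more room for a peak. A shared desert peak was present in 56 of the 198 gaps with a site (28.3%) and in 37 of the 1491 without (2.48%), gaps that also differ in length. Most occupied gaps held few sites: 139 held 1, 30 held 2, 17 held 3 and 12 held 4 or more. A further 4 sites lay beyond the outermost protein-coding gene of chr9 or chr16.

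The site of highest enrichment lay between Ednrb, the endothelin receptor type B gene, at 493 kb and Pou4f1, a neuronal POU-domain factor gene, at 125 kb (chr14:104336962-104337107). It had a fold enrichment of 13.8 with 43 tags over the summit (exact Poisson interval 31.1 to 57.9, counting error only), and it lay inside the lncRNA gene D130079A08Rik. The next lay between Aldh8a1, an aldehyde dehydrogenase gene, at 192 kb and Sgk1, a serum- and glucocorticoid-regulated kinase gene, at 293 kb, with 11.9 fold and 37 tags. No other site exceeded 9.08 fold, the value of an X-linked site with 28 tags between Nap1l3 and Cldn34c1. The fourth, at 8.76 fold with 27 tags, lay between Hmga2, an architectural chromatin protein gene, at 205 kb and Msrb3 at 100.03 kb. Another 5 of the 10 highest had 24 to 30 tags and 7.82 to 8.14 fold, and lay between Nxph1 and Ndufa4, Epm2a and Utrn, Gm5148 and Ankrd50, Cdkn2b and Dmrta1, and Prickle1 and Adamts20. With tag numbers this close, their order among each other is within counting error.

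The distance limit of 100 kb cut through a continuous range. The sites just inside were the Hmga2 and Msrb3 one at 100.032 kb (8.76 fold), one at 100.232 kb from Mpdz (2.55 fold) and one at 100.348 kb from Gm38457 (3.47 fold). Just outside were stimulated-only peaks at 98.921 kb from Ppp1r3b (3.10 fold), 98.902 kb from Gm38457 (4.25 fold) and 98.163 kb from Mpp6 (3.89 fold). The peaks inside and outside the limit near Gm38457 were neighbours. The median distance of the 307 to the nearest gene was 190 kb, and 164 sites (53.4%) were at most 200 kb away, 30 were over 500 kb away and 7 over 1000 kb. The farthest, with 3.55 fold at chr12:94420994-94421314, lay 1526 kb from Gm40892 and 1271 kb from Flrt2, which encodes a membrane protein of the FLRT family that binds adhesion and guidance receptors. Another of the 7 lay between Slc10a2 and Efnb2, the gene of the arterial marker ephrin-B2, with 4.75 fold at 1262 and 2249.6 kb.

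Many deserts contained annotated transcripts. The summit of 74 of the 307 sites (24.1%, 19.4 to 29.3) lay inside a non-coding gene or pseudogene, for 72 of them a lncRNA gene. Among the 292 sites on chromosomes for which starts of non-coding genes were at hand, 7 lay within 1 kb and 45 within 10 kb of such a start. The same shares were not counted for other peaks or for desert sequence as a whole. These counts therefore do not set the sites apart from their surroundings. When all annotated genes were counted, only 36 stimulated-only peaks were over 100 kb from a gene, so these deserts are free of protein-coding genes and not of genes. Where the strand of the nearest protein-coding gene was known, it faced the site with its start for 113 of 236 sites (47.9%, 41.4 to 54.5).

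Sites lay in groups as well as singly. With summits at most 50 kb apart counted as 1 cluster, 93 of the 307 sites (30.3%) formed 38 clusters, of which 25 were pairs, 9 had 3 sites and 4 had 4. Sites in a cluster share their chromatin and are not independent of each other. The widest of those with 4 lay between Fn1, the fibronectin gene and a TGF-beta-responsive matrix gene, and Mreg: its sites stood 271, 304, 317 and 361 kb from Fn1 with 4.69, 4.20, 3.51 and 3.29 fold. Mreg was nearer to each of them, at 235, 202, 189 and 145 kb. The Hmga2 and Msrb3 cluster had 3.80, 2.89, 3.38 and 8.76 fold, and its second site is the 4930471E19Rik sequence shown above. The cluster between Fam43a and Xxylt1 had 3.89, 2.70, 4.12 and 2.89 fold. The last with 4 is the high-background group on chr14.

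The 9 clusters of 3 lay beside genes of several kinds. Beside Myc, the growth-promoting transcription factor gene, 3 sites inside the lncRNA gene Pvt1 lay 114, 129 and 145 kb away with 4.57, 4.0 and 4.10 fold. Next to Foxo1, a forkhead factor gene active in endothelium, with Cog6 on the other side, 3 sites had 2.89, 5.33 and 4.0 fold. In the gap from Bcl2l11, the gene of the pro-apoptotic protein BIM, to Spdye4c, 3 sites had 3.55, 2.90 and 4.86 fold, the last inside the lncRNA gene Morrbid. Between Cxcl12, a chemokine gene, and Zfp637 they had 3.67, 2.96 and 5.0 fold. These sites lay 415 to 433 kb from Cxcl12 and 226 to 244 kb from Zfp637. Between Dusp10, a MAP kinase phosphatase gene, and Hlx, a homeobox gene, they had 3.69, 4.18 and 4.29 fold, and an unstimulated peak lay 0.762 to 5.68 kb from each. Between Gm5148 and Ankrd50 the 3 sites were stronger, at 6.98, 7.95 and 5.36 fold. The remaining ones lay between Nr5a2 and Ptprc (5.33, 3.56 and 2.89 fold), between Plk2 and Actbl2 (3.83, 2.88 and 3.40 fold), and at the high-background place on chr9.

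The gap from Myc to Gsdmc, 1786 kb long, held 8 sites, more than any other gap. Their fold enrichment ran from 3.22 to 6.57, with 3 inside Pvt1, 4 between 331 and 493 kb from Myc, and the last alone at 1494 kb. The gap from Nr5a2, a nuclear receptor gene, to Ptprc, which encodes the leukocyte protein CD45, held 5. Another 10 gaps held 4 each. In the gap between Aldh8a1 and Sgk1 the 4 sites had 4.52, 11.9, 5.50 and 4.0 fold and lay among 5 shared desert peaks within 486 kb. The 4 between Gap43 and Zbtb20 (5.09, 3.97, 4.74 and 3.27 fold) and the 4 between Mn1 and Cryba4 (5.63, 4.74, 3.07 and 3.08 fold) had no shared desert peak in their gap.

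**Figure D4:**
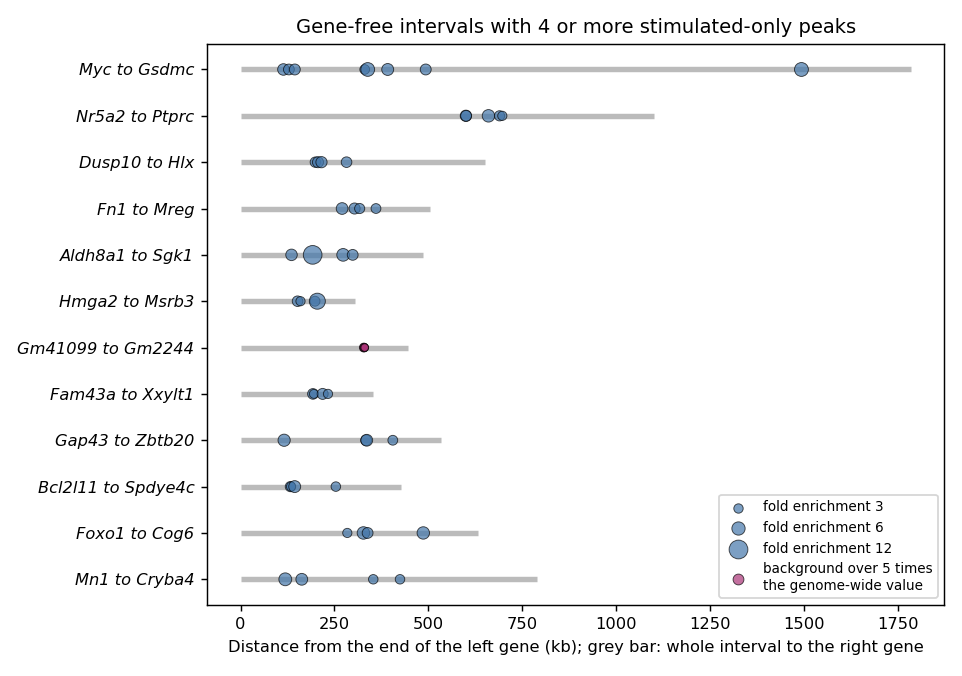
Stimulated-only desert sites in the 12 gaps between protein-coding genes that held 4 or more, 1 row per gap, plotted by distance from the end of the left gene (kb), with the grey bar spanning the gap to the right gene, circle area scaled to fold enrichment and purple circles for a background over 5 times the genome-wide value. In the 1786 kb gap between Myc and Gsdmc 7 of the 8 sites lay within 493 kb of Myc and the last at 1494 kb, and the 4 between Gm41099 and Gm2244 sat within 2.61 kb.

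The sites bordered 387 protein-coding genes in all. To place genes of known roles, 6 lists were used, and each is counted over those of its genes that border a gap over 200 kb, since others could not flank a desert site. Over all genes 385 of 2811 such genes (13.7%) flanked a site. These counts describe the lists and are not tests, the lists are short, and neighbouring genes of a list can share 1 site. The gaps beside the genes of all 6 lists were also longer than those of all genes, with medians of 524 kb (BMP targets), 505 kb (TGF-beta targets), 575 kb (endothelial), 691 kb (transcription factors), 659 kb (secreted and matrix) and 1392 kb (adhesion and synapse) against 439 kb. Over all gaps, those with a site were longer than those without. For the genes that flanked a site, the median gap was shorter in the endothelial list (403 kb), nearly the same for TGF-beta targets (506 kb) and longer in the other lists. The part of gap length in the shares was not tested.

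Among 10 BMP target genes bordering such a gap, 4 flanked a site, with 7 sites in all and a median of 5.68 fold. Id2, which encodes an inhibitor of bHLH factors and is a classic target of BMP SMADs, had 1 site at 172 kb (chr12:25268305-25268602) with 31 tags and 5.33 fold. Hes1, a Notch and BMP responsive repressor gene, had 1 at 119 kb with 33 tags and 5.48 fold. Msx2, a homeobox gene, had 2, at 187 and 448 kb with 5.68 and 6.0 fold. Bambi, which encodes a decoy receptor that dampens BMP and TGF-beta signalling, had 3, at 251, 252 and 325 kb with 5.29, 7.51 and 6.25 fold. The genes on the other side were Rnf144a (Id2), Opa1 (Hes1), Drd1 (Msx2) and Lyzl1 (Bambi). Drd1 at 131 kb was nearer than Msx2 to the second Msx2 site. Each of these 7 sites stood above the median of 4.44 fold of the 307. In IP tags only the Id2 and Hes1 sites stood above the median of 25, while those of Msx2 and Bambi had 17 to 23. Local background was low there, at 2.7 and 3.0 tags for Msx2 and 2.19 and 2.4 for the 2 sites nearest Bambi. The median background of the 307 was 5.0 tags.

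Among 7 TGF-beta target genes 5 flanked a site, with 10 sites and a median of 3.89 fold. Besides the 4 of Fn1, Thbs1, the gene of the matrix protein thrombospondin 1, had 3 sites at 155, 209 and 474 kb with 5.18, 3.11 and 3.83 fold. Pmepa1, a feedback inhibitor gene of TGF-beta signalling, had 1 at 104 kb with 6.67 fold, the strongest of the list. Zeb2, a SMAD-binding repressor gene, had 1 at 338 kb with 3.94 fold, and Jun, an AP-1 subunit gene, had the high-background one at 344 kb. Across from these genes lay Rasgrp1 (Thbs1), 1700021F07Rik (Pmepa1), Acvr2a (Zeb2) and Fggy (Jun). Fggy at 162 kb was nearer than Jun, and Rasgrp1 at 295 kb was nearer to the site farthest from Thbs1. The median fold of the list lay below that of all 307 sites, unlike that of the BMP targets, but 10 sites at 5 genes are too few to set the lists apart.

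Among 14 endothelial genes 7 flanked a site, with 13 sites and a median of 4.62 fold. Kdr, the gene of the VEGF receptor VEGFR2, and Kit, a receptor gene on the other side, flanked 2: one at chr5:75814297-75814815, 118 kb from Kdr and 158 kb from Kit, with 51 tags and 5.78 fold, and one 106 kb from Kdr and 170 kb from Kit with 39 tags and 4.04 fold. Emcn, which encodes the capillary and venous sialomucin endomucin, had 1 at 190.5 kb with 39 tags and 6.78 fold over 360 bp. Ets1, an ETS factor gene of endothelium and blood, had 3 at 144, 148 and 1112 kb with 4.73, 3.67 and 7.51 fold. Klf4, a flow-responsive factor gene, had 3 at 189.6, 661 and 976 kb with 4.62, 2.50 and 4.0 fold. Efnb2 had 2, at 342 and 2249.6 kb with 3.65 and 4.75 fold. Single sites lay 237 kb from Edn1, the endothelin 1 gene (4.0 fold), and 175 kb from Foxf1, a forkhead factor gene (4.85 fold). The other flanks were Ppp3ca (Emcn), Kirrel3 (Ets1), Actl7b (Klf4), Slc10a2 (Efnb2), Phactr1 (Edn1) and Irf8 (Foxf1). Phactr1 at 136 kb and Irf8 at 153 kb were the nearer genes. So were Kirrel3, Actl7b and Slc10a2 at the sites farthest from Ets1, Klf4 and Efnb2. Actl7b at 547 kb was also nearer than Klf4 to the site at 661 kb from Klf4.

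**Figure D5:**
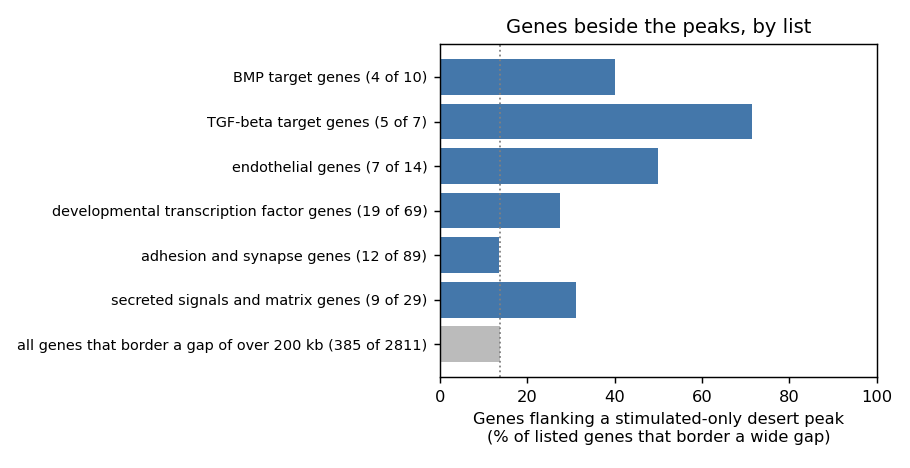
Percent of the listed genes bordering a gap over 200 kb that flanked a stimulated-only desert site, for 6 gene lists and for all such genes. The share was 13.7% over all genes, 13.5% for adhesion and synapse genes and 27.5% to 71.4% for the other lists, whose denominators run from 7 to 69 genes and whose gaps are longer than those of all genes (medians 505 to 691 kb against 439 kb).

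Developmental transcription factor genes border deserts often, and 69 of the 78 listed bordered a gap over 200 kb. Of these 19 (27.5%) flanked a site, with 29 sites and a median of 4.40 fold. Rora, an orphan nuclear receptor gene, had 1 at 263 kb with 7.20 fold, and Runx1, the regulator of blood formation from endothelium, had 1 at 129 kb, 503 bp wide with 38 tags and 4.88 fold. Tbx3, a T-box gene, had 3 at 203, 462 and 615 kb with 5.76, 6.28 and 3.51 fold, the nearest of them with 48 tags. Sox9, a SOX factor gene of cartilage and other tissues, had 2 inside the lncRNA gene 2610035D17Rik with 5.95 and 4.37 fold. Klf6, Tshz1, Tcf4, Sox4, Mycn and Gli2 also had more than 1 site. Beyond the sites lay Vps13c (Rora), Setd4 (Runx1), Med13l (Tbx3) and Slc39a11 (Sox9). Slc39a11 at 199 and 184 kb was nearer than Sox9 to both sites. Med13l at 443 and 290 kb was nearer than Tbx3 to the sites at 462 and 615 kb from Tbx3. Akr1e1 (Klf6), Zfp516 (Tshz1), Mc2r (Tcf4), Prl5a1 (Sox4), Cyria (Mycn) and Inhbb (Gli2) flanked the others. Prl5a1 at 306 kb was nearer than Sox4 to the site at 491 kb from Sox4.

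Of 29 genes of secreted signals and matrix 9 (31.0%) flanked a site, with 14 sites and a median of 4.38 fold. Adamts5, an aggrecanase gene, had 3, of which the strongest had 46 tags and 7.23 fold at 361 kb, next to one of 2.55 fold. Bmp4, a BMP ligand gene, had 1 on each side, at 387 and 246 kb with 4.63 and 5.69 fold. Fst, the gene of the activin and BMP antagonist follistatin, had 1 at 195 kb with 5.53 fold, and Tgfb2, a TGF-beta ligand gene, had 1 at 333 kb with 4.50 fold. Inhba, the activin A subunit gene, had 1 at 191 kb with 3.0 fold. Opposite lay N6amt1 (Adamts5), Ddhd1 and Cdkn3 (Bmp4), Mocs2 (Fst), Lyplal1 (Tgfb2) and Sugct (Inhba). Ddhd1, Cdkn3, Mocs2 and Lyplal1 were nearer than the listed gene, at 339, 124, 164 and 172 kb.

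Adhesion and synapse genes, many of them neuronal, border the widest gaps of the 6 lists. Of 89 that border such a gap 12 (13.5%) flanked a site, a share close to the 13.7% of all genes, although their gaps are longer. Their 15 sites had a median of 4.51 fold. The Kirrel3 sites among them are those already given under Ets1, and the Lrrc4c sites are the high-background pair. Examples are sites 485 kb from Cntn6, a contactin gene (7.02 fold, 506 bp wide), 1835 kb from Slitrk1 (7.20 fold) and 766 kb from Slit2, a guidance ligand gene (4.75 fold). Their other flanks were Chl1 at 274 kb, Trim52 at 940 kb and Lcorl at 1358 kb, of which Chl1 and Trim52 were the nearer genes.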

How the data were processed

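SMAD4 ChIP-seq of MS1 cells was analysed from the deposited peak lists, 1 per condition, each called on 2 pooled IP libraries against 2 pooled inputs, per the file headers. MACS2 2.1.0.20140616 called the peaks, per the file headers. HOMER and mm10 are also named, per the submitters' processing notes, and no aligner is given in the sources used here. The deposited pileup is a coverage signal in tags, extended by the authors to 100 bp and unscaled; it was divided by the IP tags (41044888 stimulated, 52971023 unstimulated). The fold enrichment is the authors' deposited ratio of pileup plus 1 to background plus 1. The authors' −log10 p and −log10 q values, deposited per peak, compare IP with input. Pileup and fold enrichment together give the local background. Its Poisson tail differed from the deposited −log10 p by under 1% at each of the 4333 and 1133 peaks. The calling limit assumes equal background per tag in both lists. Since tags were longer than the extension, widths describe pieces of fragments.

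Distances ran from summits to gene bodies of 21887 protein-coding genes (RefSeq, GRCm38.p6), with strand known for 17492. Sequences and microRNAs are from RefSeq tables of that assembly, which had no entries for some chromosomes used here; no genome was used, so other sites have no sequence and the planned motif search over all sites was limited to 3 peaks. Named sites were the 10 of highest fold enrichment, those nearest the distance limit, the farthest, clusters of 3 or more, gaps with 4 or more, and sites flanking listed genes. One of the 10 highest is not reported here. The sites and lists were chosen with earlier results of these data known. No test was run, as the lists pool the replicates. Intervals are 95% exact binomial (shares), order-statistic (medians over peaks) or exact Poisson (pileups), and cover counting error only, since tags are not independent molecules. The scripts recovered known answers on simulated peaks. Python 3.11.15, pandas 2.3.3, numpy 2.4.6, scipy 1.17.1 and matplotlib 3.10.9 were used.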

Additional observations from a re-analysis of the deposited data

How the results depend on the processing

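The number of sites moved with the limits of distance and of q, and their median strength with the limit of q and the length of the list. Of 83 alternative values, 48 stayed close to those reported and 35 moved. At over 50 kb from a gene there were 529 sites (16.3% of stimulated-only and 19.4% of shared peaks, median width 180 bp, 59.2% under 200 bp); at over 200 kb 143 (4.41% and 5.75%, 158 bp); at over 500 kb 30 (0.924% and 0.927%, 150 bp). Counting all genes left 36 (1.11% and 1.30%), 58.3% of them under 200 bp. A −log10 q of at least 5 left 199 sites in 22 clusters, with medians of 5 fold and 0.682 tags per 1000000 and 58.3% under 200 bp. A −log10 q of at least 10 left 74 (10.5% of stimulated-only peaks), with medians of 5.87 fold, 0.767 tags per 1000000 and 198.5 bp and 50% under 200 bp. Shortening the stimulated list to the unstimulated length left 37, with medians of 6.67 fold, 0.950 tags per 1000000 and 181 bp and 54.1% under 200 bp. Under 150 and 250 bp, in place of 200, lay 40.4% and 80.5%. The desert share of stimulated-only peaks was below that of shared peaks at all limits, but the intervals overlapped at each. The shares were nearly equal at 500 kb (0.924% against 0.927%) and at a −log10 q of at least 10 (10.5% against 10.7%). Leaving out the high-background sites, chosen after seeing the data, left 291 sites in 35 clusters.

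No paired analysis was possible because each list pools its libraries. For the same reason leaving out a replicate was not run, and a site carried by 1 library cannot be told apart from one present in both. A median site rests on 25 tags, so single enrichments are imprecise, and weaker binding before stimulation was not detectable from these lists.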
